A study of Mus musculus with 6 samples.

Results

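The nuclear genes for the subunits of the mitochondrial oxidative phosphorylation system were chosen by symbol, with no measured value used. They were the genes whose symbols begin with Nduf followed by a subunit letter and number, the Cox subunits from Cox4 to Cox8, the Uqcr and Atp5 genes, the Sdh subunits, Cyc1, Cycs and Atpif1. This gave 84 of the 12560 genes in the deposited table. By complex, 37 belonged to complex I, 4 to complex II, 9 to complex III, 16 to complex IV and 17 to complex V, and the remaining gene was Cycs, which encodes somatic cytochrome c. Genes for assembly factors were not counted among them. A few of the 84 are not subunits in the strict sense. Atpif1 encodes an inhibitor of ATP synthase, Atp5s a coupling factor, Cox7a2l a protein of respiratory supercomplexes, and Ndufa4, named for complex I, a protein since found in complex IV.

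The series compared RNA of mouse samples labelled chondrocytes from 3 control and 3 Eldr cKO libraries, where Eldr is a long noncoding RNA and cKO a conditional knockout. The title places the study in chondrocyte senescence with ageing and injury. The labels used here give no age, strain or Cre driver, and do not say if a group's libraries are different animals, so p-values measure how these libraries vary, which may be technical variation. In bulk RNA such as this, fewer cells of a type and less RNA per cell cannot be told apart.

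Complexes I to IV pass electrons from NADH and succinate to oxygen and, except for complex II, pump protons across the inner mitochondrial membrane, and complex V uses the returning protons to make ATP. The subunits of complex II and cytochrome c are all nuclear encoded, while complexes I, III, IV and V also hold subunits made from mitochondrial DNA. Heart muscle depends on this system and carries tissue isoforms of several complex IV subunits, whereas cartilage cells are known for relying largely on glycolysis.

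The libraries were shallow. The deposited values are FPKM, a fragment count scaled to transcript length and library depth, and their steps placed the totals at 464358, 79233 and 130367 fragments in controls 1 to 3 and at 191543, 52354 and 55987 in knockouts 1 to 3. On a transcript of 1 kb, 1 fragment equalled 2.15 FPKM in control 1 and, in Eldr cKO 2, 19.1 FPKM. Of the labelled cell type's 10 listed markers, 6 had a row, with a summed level of 22.4 to 150 FPKM, and the cartilage genes Acan, Col2a1, Col9a1 and Matn3 had none. All 9 heart muscle markers had a row. Their summed FPKM was 7326, 1733 and 776 in the controls and 6747, 1321 and 1805 in Eldr cKO. Genes of the mitochondrial genome held 33.8% to 70.0% of the summed FPKM, and genes with Gm symbols held 3.26% to 49.4%, highest in Eldr cKO 2 and 3. All 6 macrophage markers had a row, and their sum was 239, 281 and 116 FPKM in the controls and 289, 389 and 350 FPKM in Eldr cKO. As a share of the summed FPKM outside mitochondrial and Gm genes these markers overlapped between groups, at 0.192%, 0.450% and 0.0935% against 0.197%, 0.577% and 0.432%. Sums of other marker lists overlapped between groups as well. Red cell markers summed to 737, 341 and 305 FPKM in the controls and 596, 682 and 580 FPKM in Eldr cKO. Fibroblast markers summed to 52.1, 67.0 and 33.9 FPKM against 110, 64.4 and 82.2 FPKM. Skeletal muscle markers with a row summed to 466, 167 and 77.0 FPKM against 492, 55.3 and 114 FPKM. The part of any of these cell types in the results was not tested.

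Some promoter windows of these genes held a sequence feature that was rarer over all windows, though most of them lacked it. RefSeq windows on GRCm38.p6, from 250 bases before to 50 after the start, were matched for 67 of the 84 genes, as 72 windows. The letters GCGCATGCG, the core of a site for NRF1, a factor known to bind promoters of respiratory genes, were searched on both strands. They stood in 9 of the 72 windows (12.5%), against 1.75% of all 32851 windows. The 7 in which they end before the start site are printed 5′ to 3′ on the gene's strand, with the NRF1 letters, and in Atp5l also ETS letters, in capitals; a run of 10 capitals is 2 overlapping matches, 1 on each strand.
Ndufa8, complex I, chr2:36049339-36049382, minus strand: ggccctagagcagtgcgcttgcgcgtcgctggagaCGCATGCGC
Atp5k, complex V, chr5:108434405-108434484, minus strand: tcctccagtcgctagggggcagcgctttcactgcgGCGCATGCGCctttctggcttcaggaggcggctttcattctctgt
Cox6a1, complex IV, chr5:115349076-115349155, minus strand: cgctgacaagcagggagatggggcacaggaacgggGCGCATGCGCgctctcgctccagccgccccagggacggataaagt
Cycs, cytochrome c, chr6:50566586-50566665, minus strand: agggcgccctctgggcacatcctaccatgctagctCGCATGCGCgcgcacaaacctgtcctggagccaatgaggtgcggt
Atp5l, complex V, chr9:44920939-44920992, minus strand: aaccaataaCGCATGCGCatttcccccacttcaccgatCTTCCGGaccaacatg
Atp5g2, complex V, chr15:102671048-102671124, minus strand: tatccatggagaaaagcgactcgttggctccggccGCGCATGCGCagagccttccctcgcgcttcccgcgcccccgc
Ndufa11, complex I, chr17:56717667-56717746, plus strand: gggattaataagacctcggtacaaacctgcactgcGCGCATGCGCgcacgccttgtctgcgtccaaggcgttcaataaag

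In the windows of Uqcr11 and Uqcrc1 the letters reached or lay past the start. Letters of an ETS site, CCGGAAG, stood in 22.2% of the members' windows and in 8.86% of all windows. For the TATA letters TATAAA the shares were 9.72% and 13.6%, and for the CCAAT letters 41.7% and 37.4%. All were searched on both strands, no motif contains another, and a match describes the letters alone. The windows of all genes were not matched to those of the members for G and C content.

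The muscle and ubiquitous isoforms of complex IV subunit 7a offer a pair whose promoters could both be read. The 120 bases before each start are given for comparison, in lower case since neither holds the NRF1 or ETS letters.
Cox7a1, the heart and skeletal muscle isoform, chr7:30184051-30184170, plus strand: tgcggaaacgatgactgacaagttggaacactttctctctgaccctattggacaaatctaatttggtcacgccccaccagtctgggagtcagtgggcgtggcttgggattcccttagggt
Cox7a2, the isoform of most other tissues, chr9:79759854-79759973, minus strand: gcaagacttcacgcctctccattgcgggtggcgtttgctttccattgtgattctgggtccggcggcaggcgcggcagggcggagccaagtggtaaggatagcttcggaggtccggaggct

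G and C made up 51.7% of the Cox7a1 stretch and 62.5% of the Cox7a2 stretch.

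The genes of oxidative phosphorylation were listed above 0 more widely than the table as a whole. The controls listed 83, 70 and 73 of the 84 above 0, and the Eldr cKO libraries 82, 63 and 66. Over all 12560 genes the shares above 0 ran from 36.6% to 79.1%, against 75% to 98.8% of the 84. In every one of the 6 libraries 47 of the 84 (56.0%) were above 0, against 12.7% of all genes, and 32 of the 84 (38.1%) were above 10 FPKM throughout. By complex, those above 0 in all libraries numbered 16 of 37 in complex I, 2 of 4 in complex II, 6 of 9 in complex III, 11 of 16 in complex IV and 11 of 17 in complex V, and Cycs was the other. Cox4i2 and Cox6b2 were above 0 in a single library each, and Ndufa4l2, Cox8b and Atp5s in 2.

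Most of these values stood on few fragments. Taken over the longest annotated transcript, the median of the 84 genes, those at 0 included, was 53.9 fragments in control 1 and 18.9 in Eldr cKO 1, and between 1.64 and 4.88 in the other 4 libraries. Above 0 but on at most 3 fragments were 2 genes in control 1, 3 in Eldr cKO 1, 33 in control 2, 23 in control 3, 38 in Eldr cKO 2 and 39 in Eldr cKO 3. A count of 1 fragment has an exact 95% Poisson interval of 0.0253 to 5.57, which covers counting error only. A gene listed at 0 in a shallow library may therefore be present there, and limits are given as the FPKM that 3 fragments on the longest transcript would make.

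**Figure D1:**
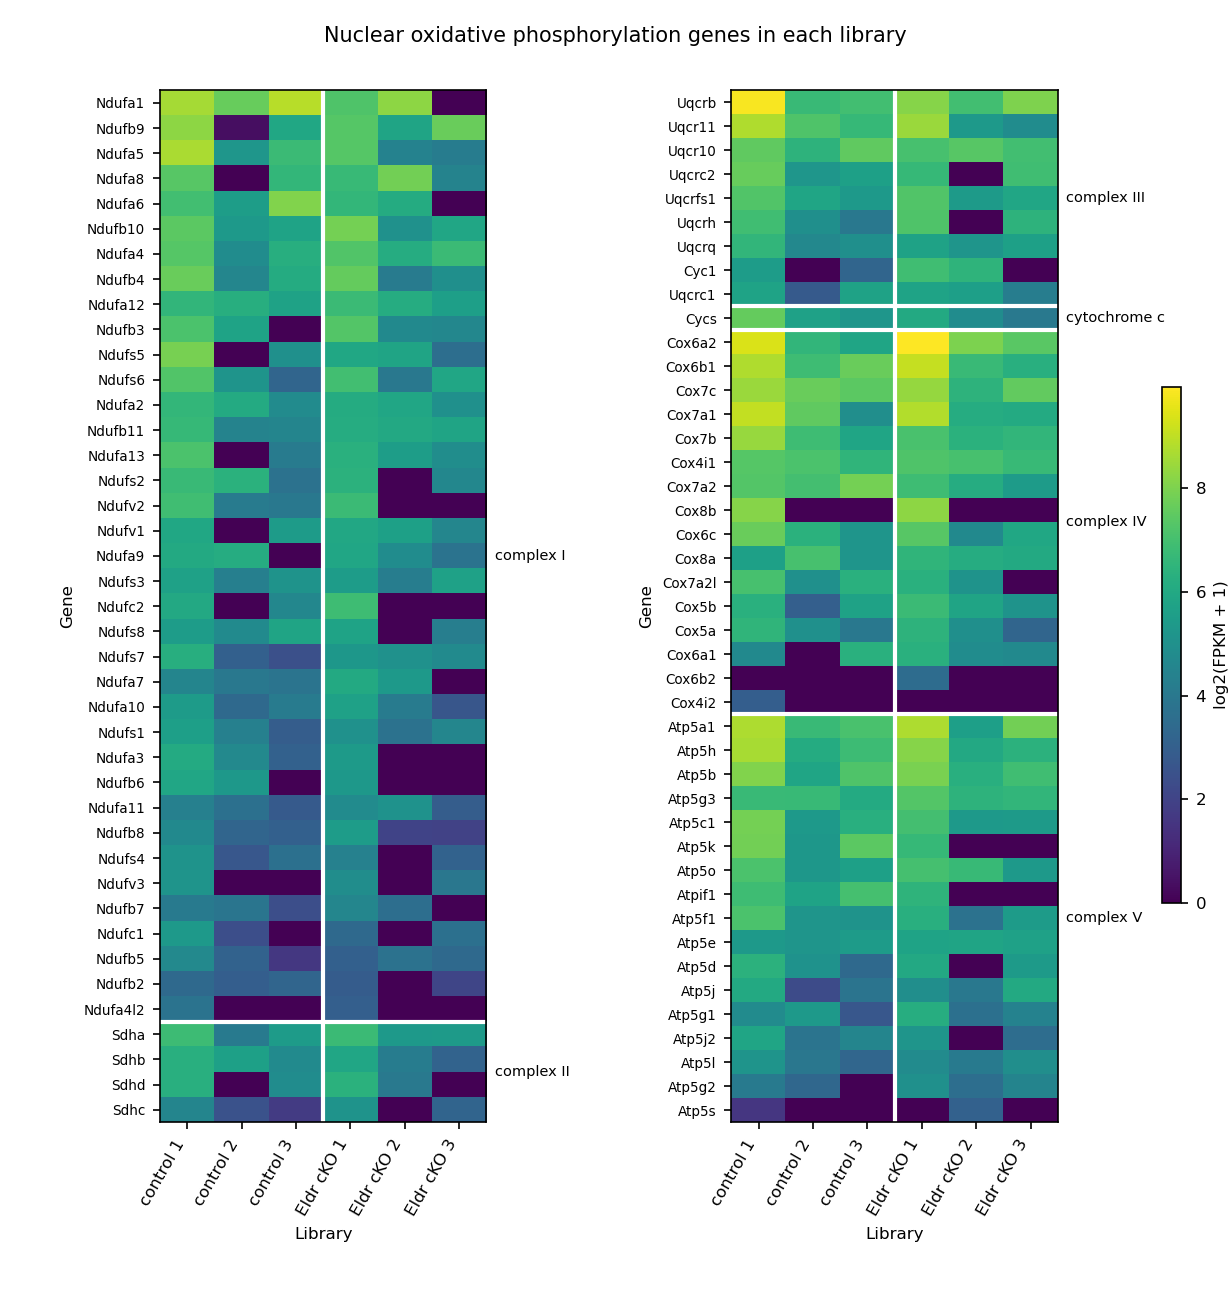
Level of each of the 84 genes, as log2(FPKM + 1) by colour, in the 3 control and 3 Eldr cKO libraries, with genes grouped by complex and ordered by mean FPKM within it. Dark cells are genes listed at 0, which gather in control 2 and 3 and in Eldr cKO 2 and 3.

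Complex II, which oxidizes succinate and belongs to the citric acid cycle as well, was the lowest in sum, with its 4 genes. Its flavoprotein Sdha was at 111, 16.2 and 43.4 FPKM in control libraries and 111, 40.5 and 42.3 FPKM in Eldr cKO. The iron-sulfur subunit Sdhb was at 76.2, 49.4 and 26.3 FPKM against 57.7, 16.9 and 7.92 FPKM. Control 1 and Eldr cKO 1 were the highest libraries of their groups for both genes, and the groups overlapped. The membrane anchors were sparser, with Sdhd at 77.5, 0 and 28.0 FPKM in the controls and 81.1, 15.4 and 0 FPKM in Eldr cKO. Sdhc was at 22.2, 4.67 and 2.34 FPKM against 33.7, 0 and 8.23 FPKM. Each anchor was thus listed at 0 in at least 1 of the shallow libraries.

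In complex I, the NADH dehydrogenase, the 4 genes of highest mean FPKM were the accessory subunits Ndufa1, Ndufb9, Ndufa5 and Ndufa8. Ndufa1 was at 391, 200 and 475 FPKM in control libraries and 149, 308 and 0 FPKM in Eldr cKO, its single transcript standing on 76.1, 6.63 and 25.9 fragments and on 12.0, 6.76 and 0. In Eldr cKO 3 a count of 3 fragments would have made 128 FPKM, below each control. Ndufa5 was at 407, 36.7 and 110 FPKM against 160, 20.4 and 17.4 FPKM, and its groups overlapped through Eldr cKO 1. Ndufb9 was at 309, 0.287 and 59.3 FPKM in control libraries and 160, 55.5 and 204 FPKM in Eldr cKO. Ndufa8 was at 165, 0 and 94.5 FPKM against 102, 226 and 20.8 FPKM. For both genes control 2 was the lowest library.

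Both core subunits singled out for their roles had a lower mean FPKM than these. Ndufv1, which binds the flavin and NADH, was at 59.3, 0 and 43.2 FPKM in control libraries and 60.8, 48.9 and 23.0 FPKM in Eldr cKO. Ndufs1, the largest iron-sulfur subunit, was at 48.3, 19.1 and 6.66 FPKM against 32.2, 12.5 and 22.6 FPKM. The groups overlapped for both. Ndufa4 was at 158, 27.3 and 75.1 FPKM in control libraries and 151, 71.6 and 109 FPKM in Eldr cKO, with control 2 the lowest.

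In complex III, which passes electrons from ubiquinol to cytochrome c, the small subunits Uqcrb, Uqcr11 and Uqcr10 led. Uqcrb was at 920, 106 and 121 FPKM in control libraries and 281, 121 and 257 FPKM in Eldr cKO. Control 1 stood far above the other libraries, and the rest overlapped. Uqcr11 was at 434, 147 and 99.8 FPKM against 346, 41.2 and 28.0 FPKM. Uqcr10 had the narrowest range of the 3, at 181, 85.8 and 183 FPKM in the controls and 131, 164 and 123 FPKM in Eldr cKO. Its groups overlapped. The core protein Uqcrc2 was at 200, 36.4 and 49.4 FPKM against 99.4, 0 and 118 FPKM, and its partner Uqcrc1 at 54.3, 6.07 and 51.6 FPKM against 54.4, 48.5 and 17.7 FPKM. The Rieske iron-sulfur protein Uqcrfs1 was at 152, 56.5 and 39.5 FPKM in control libraries and 150, 42.3 and 58.8 FPKM in Eldr cKO, so that the groups overlapped almost entirely.

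Cytochrome c1, the heme subunit encoded by Cyc1, was at 44.4, 0 and 8.52 FPKM in control libraries and 117, 88.1 and 0 FPKM in Eldr cKO. Cycs, the mobile carrier between complexes III and IV, was at 191, 50.4 and 36.1 FPKM against 65.0, 28.0 and 15.3 FPKM. Its groups overlapped, with Eldr cKO 1 above control 2 and 3. Cycs has a pseudogene named after it, as do Uqcrh, Atp5c1, Atp5k and Atp5l, and reads of such genes could have been split.

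Complex IV, cytochrome c oxidase, held the highest gene of the set by mean FPKM, Cox6a2. This muscle isoform of subunit 6a was at 679, 92.7 and 56.3 FPKM in control libraries and 991, 254 and 170 FPKM in Eldr cKO, on 214, 4.99 and 4.99 fragments and on 129, 9.03 and 6.49. Its log2 difference on FPKM + 1, Eldr cKO minus control, was 1.19 (SE 0.98, limma, unadjusted p = 0.224), and the groups overlapped. Leaving out 1 library moved that difference from 0.44 without Eldr cKO 1 to 2.26 without control 1, where the limma unadjusted p was 0.0241. Cox7a1 was at 525, 185 and 28.9 FPKM against 444, 71.2 and 66.2 FPKM, with control 3 the lowest of all. The ubiquitous subunit Cox6b1 was at 438, 115 and 202 FPKM against 538, 107 and 75.8 FPKM. Cox7c, another ubiquitous subunit, was at 353, 204 and 173 FPKM against 331, 84.6 and 190 FPKM. Cox4i1, the common form of subunit 4, was at 161, 141 and 91.5 FPKM in the controls and 147, 134 and 103 FPKM in Eldr cKO. Its groups overlapped, with a log2 difference of -0.01 (SE 1.06, limma, unadjusted p = 0.991).

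Isoform pairs of complex IV compare 2 genes of a library with each other, so that scaling between libraries does not touch them. In controls 1 to 3 Cox6a2 was 96.4%, 100% and 41.6% of the summed FPKM of Cox6a2 and Cox6a1, and in the Eldr cKO libraries 92.6%, 90.2% and 87.1%. Cox6a1 itself was at 25.5, 0 and 79.1 FPKM against 78.7, 27.4 and 25.2 FPKM. The 100% in control 2 came with Cox6a1 listed at 0, and with Cox6a1 at its limit of 61.1 FPKM the share would be 60.3%. In controls 1 to 3 Cox7a1 was 77.1%, 59.5% and 11.03% of Cox7a1 and Cox7a2, and in the Eldr cKO libraries 79.5%, 49.98% and 60.3%. By the longest transcript Cox7a1 stood on only 1.83 fragments in control 3 and on 1.81 and 1.8 in Eldr cKO 2 and 3. Cox7a2 stood on 20 fragments in control 3 and on 2.46 and 1.61 in Eldr cKO 2 and 3. Control 3 had the lowest share of the muscle isoform in both pairs. It was also the library with the lowest heart muscle marker share, at 0.628% of the summed FPKM outside mitochondrial and Gm genes against 1.96% to 5.88% in the others. The part of that difference in the isoform shares was not tested. Between genotypes the shares of both pairs overlapped. The Cox7a1 share was 49.2% ± 34.2 (SD, n = 3) in the controls and 63.3% ± 15.0 (SD, n = 3) in Eldr cKO. Eldr cKO minus control, the means differed by 14.1 percentage points with all libraries and -5.05 without control 3, and the Cox6a2 share means by 10.7 and -8.18. For Cox7a1 control 3 thus set the direction. For Cox6a2 it did so only with values as listed, since the -8.18 also rests on the 100% of control 2. At the 60.3% of its limit, control 2 would lie below every Eldr cKO library, so the direction of Cox6a2 without control 3 is not settled.

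The third muscle isoform, Cox8b, also known from brown fat, stood at 280 FPKM in control 1 and, for Eldr cKO 1, at 304 FPKM, on 46.8 and 20.97 fragments of its single transcript. It was listed at 0 in the other 4 libraries. A count of 3 fragments would have made 105 FPKM in control 2, 63.9 in control 3, 159 in Eldr cKO 2 and 149 in Eldr cKO 3, so lower levels were not detectable there. The ubiquitous Cox8a was at 50.1, 134 and 35.2 FPKM in the controls and 90.4, 70.3 and 65.3 FPKM in Eldr cKO. Cox8b made up 84.8% of the pair in control 1 and 77.1% in Eldr cKO 1. Of the 4 listed brown fat markers, 2 had a row, with a summed level of at most 19.9 FPKM in any library, and with control 2, control 3 and Eldr cKO 2 at 0. The isoform known from lung, Cox4i2, was at 6.81 FPKM in control 1 and listed at 0 elsewhere, and the testis isoform Cox6b2 was at 10.4 FPKM in Eldr cKO 1 and listed at 0 elsewhere. All 3 isoforms were thus above 0 in the 2 deepest libraries alone.

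**Figure D2:**
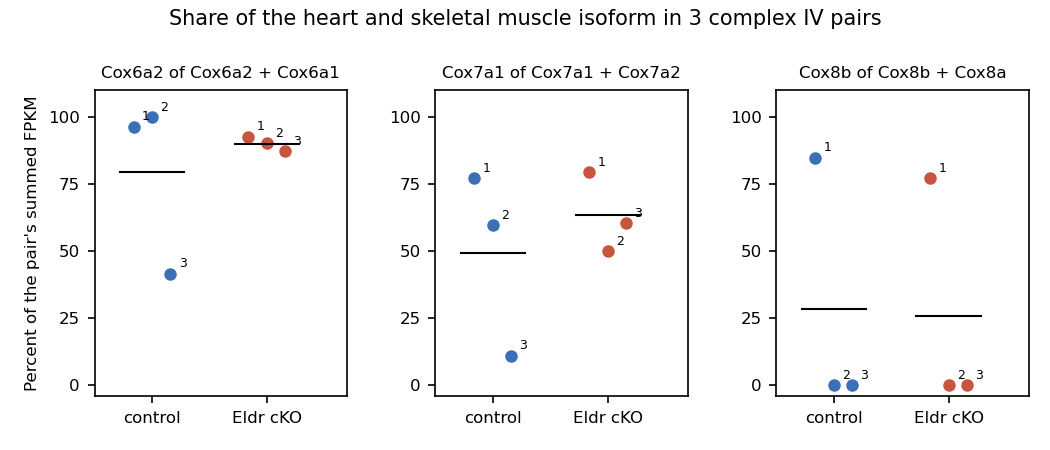
Share of the muscle isoform in the summed FPKM of Cox6a2 with Cox6a1, Cox7a1 with Cox7a2 and Cox8b with Cox8a, in percent, for each library (points, numbered by library, with the group mean as a line). Control 3 lies apart at 41.6% and 11.03% in the first and second pair, and Cox8b was above 0 in library 1 of each group alone.

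In complex V, ATP synthase, Atp5a1, Atp5h and Atp5b had the highest mean FPKM. Atp5a1, the alpha subunit, was at 423, 106 and 134 FPKM in control libraries and 425, 48.1 and 228 FPKM in Eldr cKO. Atp5b, the beta subunit that carries the catalytic sites, was at 268, 56.3 and 149 FPKM against 246, 77.2 and 118 FPKM. The groups overlapped for both, and the log2 difference of Atp5b was 0.00 to 2 decimals (SE 1.05, limma, unadjusted p = 0.996). Atp5h, a subunit of the peripheral stalk, was at 405, 69.4 and 112 FPKM against 279, 63.4 and 84.3 FPKM.

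The membrane ring of ATP synthase is built of subunit c, which 3 genes encode with the same mature protein. Atp5g3 was the highest of them by mean FPKM in both groups, at 105, 103 and 66.7 FPKM in the controls and 156, 84.5 and 93.9 FPKM in Eldr cKO. Its share of the 3 genes' summed FPKM was 70.9%, 67.7% and 92.3% in control libraries against 60.4%, 78.9% and 69.3% in Eldr cKO. Atp5g1 was at 27.0, 40.1 and 5.55 FPKM against 72.0, 11.7 and 20.2 FPKM. Atp5g2 was at 16.1, 9.04 and 0 FPKM against 30.5, 10.9 and 21.3 FPKM. Atp5g3 was the highest of the 3 in every library, and the groups overlapped for each gene.

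No gene of oxidative phosphorylation passed the test between genotypes after adjustment over all genes. With limma on log2(FPKM + 1), 0 of the 84 had a Benjamini-Hochberg adjusted p under 0.05, as had 0 (0%) of all 9007 genes tested, and the authors' deposited table gave a smallest q of 0.761 for these genes. At an unadjusted p under 0.05, 6 of the 84 (7.14%) passed, against a background of 1.5% of all genes tested. All 6 were lower in Eldr cKO, where the background was 1.04%, and 0 were higher, where it was 0.455%. Variance was pooled over all genes of a given level, so that the spread of the gene tested did not enter its own p. Over all 84, 37 lay higher in Eldr cKO and 47 lay lower, with a median log2 difference of -0.15. The median over all tested genes was -0.13.

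**Figure D3:**
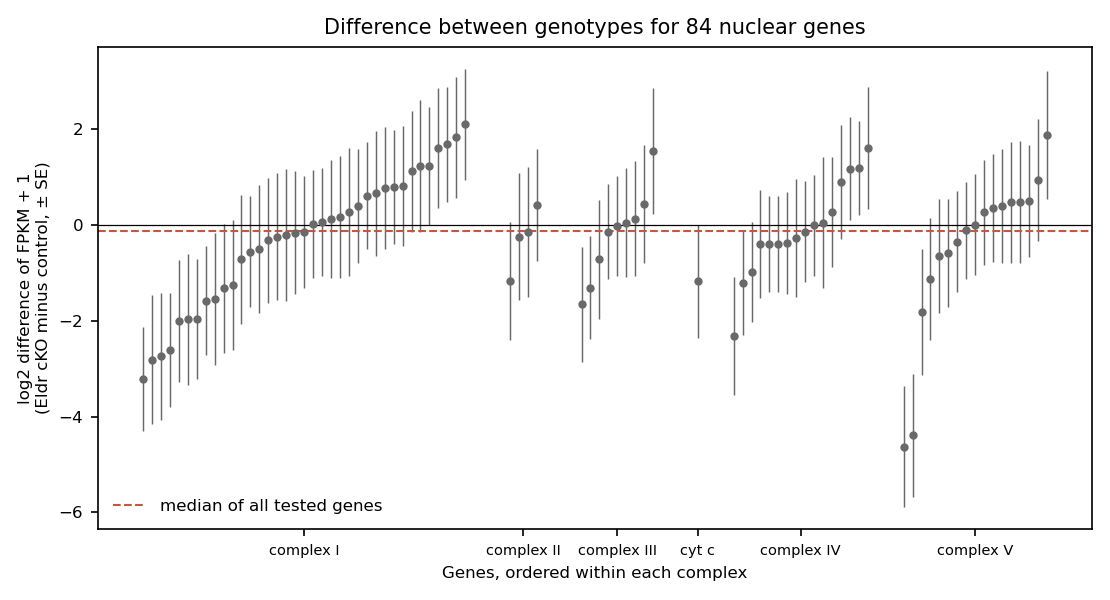
Difference in log2(FPKM + 1), Eldr cKO minus control, with its limma standard error, for the 84 genes ordered within each complex; the dashed line is the median of all tested genes at -0.13. Genes lie on both sides of that line in complexes I to V, and Atp5k and Atpif1 of complex V lie lowest.

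Counts and medians by complex were as follows in this fit, and differences between complexes were not tested. Complex I had 18 genes higher and 19 lower with a median of -0.15, complex II 1 and 3 with -0.20, complex III 4 and 5 with -0.03, complex IV 6 and 10 with -0.21, and complex V 8 and 9 with 0.00. Cycs was at -1.18 (SE 1.18). Of the 6 genes under the unadjusted threshold, 4 were of complex I and 2 of complex V. When each library was first centred on its median over the tested genes, which moved the median of all genes from -0.13 to 0.40, 57 of the 84 were higher and 27 lower, with a median of 0.38. With quantile normalization 40 were higher and 44 lower, with a median of -0.05. After rescaling to the sum outside mitochondrial and Gm genes 39 were higher and 45 lower, with a median of -0.06. The direction of the 84 as a group therefore depended on the scaling, turning under median centring alone of these scalings.

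The lowest p belonged to Atp5k, subunit e of the membrane part of ATP synthase. It was at 225, 37.9 and 174 FPKM in control libraries and 101, 0 and 0 FPKM in Eldr cKO (log2 difference -4.63, SE 1.26, limma, unadjusted p = 0.000251, adjusted p = 0.9996). The groups overlapped, since Eldr cKO 1 lay above control 2. Control 2 held 1.69 fragments by the longest transcript, and 3 fragments would have made 102 and 95.2 FPKM in Eldr cKO 2 and 3, or 211 and 197 FPKM by the shortest. The limit lies above control 2 and below control 1 by either length, and on either side of control 3 with the length taken. In the pair of deepest libraries the log2 difference was -1.14.

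Atpif1, whose product blocks reverse ATP hydrolysis by the synthase, showed the same listing. It was at 115, 53.3 and 129 FPKM in control libraries and 86.7, 0 and 0 FPKM in Eldr cKO (log2 difference -4.40, SE 1.28, limma, unadjusted p = 0.000577). The limit of 3 fragments was 56.5 and 52.8 FPKM in Eldr cKO 2 and 3 by the longest transcript, about the level of control 2, and 124 and 116 FPKM by the shortest, above control 1. Between control 1 and Eldr cKO 1 the log2 difference was -0.40. The libraries at 0 for both genes were the shallowest 2 and those with the highest share of Gm genes, and the part of depth in the difference was not tested.

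The other 4 were of complex I. Ndufa1, a short membrane subunit with values given above, had a log2 difference of -3.22 (SE 1.08, limma, unadjusted p = 0.00283), which was -0.64 without Eldr cKO 3. Ndufa6, an accessory subunit of the matrix arm, was at 122, 45.0 and 267 FPKM in control libraries and 95.8, 68.4 and 0 FPKM in Eldr cKO, with a log2 difference of -2.60 (SE 1.19, limma, unadjusted p = 0.0281) that was -0.49 without Eldr cKO 3. Both genes were listed at 0 in that library alone. For Ndufa6, 3 fragments would have made 47.0 FPKM there by the longest transcript, above control 2, and 179 FPKM by the shortest, above control 1 as well. Ndufa3, a small membrane subunit, was at 66.3, 24.7 and 7.51 FPKM against 41.5, 0 and 0 FPKM (log2 difference -2.81, SE 1.35, limma, unadjusted p = 0.0366). In Eldr cKO 2 and 3, 3 fragments would have made 73.3 and 68.5 FPKM by the longest transcript, above every control. Levels like those of the controls were thus not detectable there. Ndufv2, an iron-sulfur subunit beside Ndufv1, was at 119, 16.5 and 14.7 FPKM against 109, 0 and 0 FPKM (log2 difference -2.74, SE 1.32, limma, unadjusted p = 0.0383). Its limits in Eldr cKO 2 and 3 were 33.8 and 31.6 FPKM by the longest transcript, above control 2 and 3 and below control 1. Ndufv2 was named after its values were seen. Without Eldr cKO 2 or without Eldr cKO 3 the log2 differences of Ndufa3 and Ndufv2 were -1.91 and -1.61. In all 6 genes at least 1 of Eldr cKO 2 and 3 was listed at 0.

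Cox7a2l came next on the lower side, at 133, 31.0 and 78.1 FPKM against 78.8, 33.2 and 0 FPKM. Its log2 difference of -2.32 (SE 1.23, limma, unadjusted p = 0.0597) was -0.42 without Eldr cKO 3. In that library 3 fragments would have made 47.5 FPKM by the longest transcript, above control 2, and 90.5 FPKM by the shortest, above control 3 as well.

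The genes with the smallest p on the higher side did not pass even the unadjusted threshold. Ndufb9 had a log2 difference of 2.09 (SE 1.16, limma, unadjusted p = 0.0702), Atp5g2 of 1.87, Ndufa13 of 1.82, Ndufa8 of 1.67 and Ndufv1 of 1.60. Ndufa13, also described as a cell death regulator, was at 141, 0 and 16.7 FPKM in control libraries and 78.0, 46.0 and 28.6 FPKM in Eldr cKO. Control 2 was listed at 0 or, for Ndufb9, at a value worth 0.02 of a fragment for all of these but Atp5g2. Without control 2 the log2 differences became -0.15 for Ndufb9, -0.06 for Ndufa13, -0.65 for Ndufa8 and -0.30 for Ndufv1. Atp5g2 was listed at 0 in control 3 instead, and without that library its log2 difference was 0.64. Without control 1, Ndufb9, Ndufa13 and Ndufa8 passed the unadjusted threshold, at 3.80, 3.51 and 3.03.

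Control and Eldr cKO values did not overlap in 3 of the 79 genes that had at most 3 values at 0 (3.80%), against 5.08% of all such genes. Cox7a2 was at 156, 126 and 233 FPKM in control libraries and 114, 71.2 and 43.5 FPKM in Eldr cKO, every Eldr cKO library below every control. By the longest transcript it stood on 6.56 fragments in control 2 and on 2.46 and 1.61 in Eldr cKO 2 and 3. There 3 fragments would have made 86.95 and 81.3 FPKM, below every control, or 167 and 156 FPKM by the shortest transcript, above control 2. The log2 difference of Cox7a2 was -1.22 (SE 1.08, limma, unadjusted p = 0.260). The exact two-sided permutation test gave p = 0.1, the smallest that 3 against 3 libraries allow. Ndufb2, an accessory subunit of complex I, was at 9.63, 6.80 and 8.38 FPKM against 6.49, 0 and 3.18 FPKM, with a log2 difference of -1.54 (SE 1.38). It stood on at most 4.78 fragments in the 4 shallow libraries. In Eldr cKO 2 and 3, 3 fragments on its longest transcript would have made 13.1 and 12.3 FPKM, above every control. Levels like those of the controls thus lay under the limit there.

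Atp5e, the epsilon subunit of the head of ATP synthase, was the 1 gene of the 3 that was higher in Eldr cKO. It was at 40.6, 35.9 and 43.5 FPKM in control libraries and 53.0, 54.5 and 50.6 FPKM in Eldr cKO (log2 difference 0.39, SE 1.18). In the authors' deposited table it had p = 0.00957 and q = 0.761. A p under 0.05 there was held by 1 of the 84, this gene, and by 249 of all 12560 genes. Its FPKM times library depth was 1.00 and 0.995 times that of control 2 in Eldr cKO 2 and 3, and 1.99 times in control 3. Control 2 and Eldr cKO 2 and 3 thus sat on the same step of fragments, and their FPKM differed by library depth alone. The whole number behind that step depends on which of its 3 annotated transcripts is meant, being 1.14 fragments by the shortest and 4.83 by the longest in control 2.

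The 2 deepest libraries, control 1 and Eldr cKO 1, were also set side by side, a comparison chosen after the values were seen and with 1 library a group, so with no test. In Eldr cKO 1, 28 of the 84 were higher and 56 were lower, with a median log2 difference of -0.29, where all 8451 genes above 0 in either had 4932 higher and 3519 lower, with a median of 0.28. More than 2-fold lower were 13 of the 84 (15.5%), against 15.7% of all genes, and more than 2-fold higher were 5 (5.95%), against 28.8%. The 2 sets differ in level, since 80 of the 84 averaged at least 5 FPKM, against 3340 of all 9007 tested genes. On a transcript of 1 kb, 1 fragment equalled 5.22 FPKM in Eldr cKO 1 and 2.15 FPKM in control 1. The part of level and depth in these shares and medians was not tested. Cox6a2 was among the genes not beyond 2-fold in this pair, at a log2 difference of 0.54. Uqcrb was at -1.71, Cycs at -1.54 and Ndufa5 at -1.34, and Cox6a1 was at 1.59 and Cyc1 at 1.38. Across the 84 genes Pearson's r of log2(FPKM + 1) was 0.854 between these libraries, as a description, and 0.347 to 0.673 between all other pairs. Over all genes of the deposited table this pair was also the highest, at 0.706 against 0.406 to 0.535, so its closeness was not particular to the 84.

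Sums over a complex varied widely within each genotype. Complex I summed to 3931, 1009 and 1632 FPKM in the controls and to 2871, 1385 and 934 FPKM in Eldr cKO. Complex IV summed to 3517, 1263 and 1136 FPKM against 3624, 1044 and 933 FPKM. Complex V summed to 2374, 687 and 1028 FPKM against 1938, 545 and 887 FPKM. Library 1 of each group was the highest in all 3 complexes, and the groups overlapped. As a share of the summed FPKM outside mitochondrial and Gm genes, all 84 genes held 10.04%, 5.71% and 3.67% in the control libraries against 6.92%, 5.37% and 4.40% in Eldr cKO, or 6.47% ± 3.25 and 5.56% ± 1.27 (SD, n = 3 each). Without control 1 the control mean was 4.69%, below that of Eldr cKO. The heart muscle marker share ran from 5.88% in control 1 to 0.628% in control 3, and from 4.59% in Eldr cKO 1 to 1.96% in Eldr cKO 2. Control 1 was highest and control 3 lowest in both measures, and the part of muscle content in these sums was not tested.

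**Figure D4:**
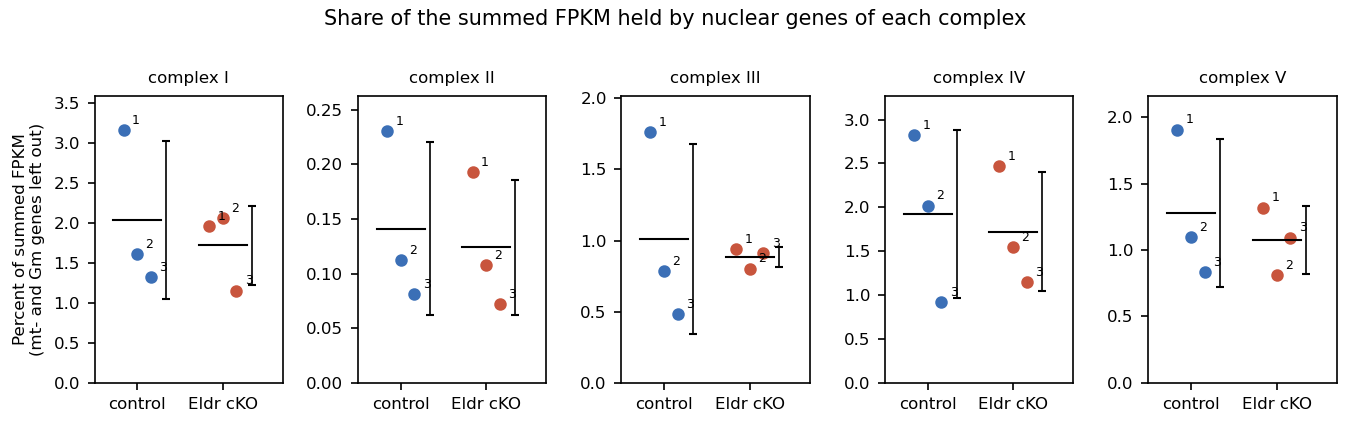
Percent of the summed FPKM outside mitochondrial and Gm genes held by the nuclear genes of each complex, for each library (points, numbered by library), with the group mean (line) and SD (bar, n = 3 libraries). The groups overlap in all 5 complexes, and control 1 is the highest library in each.

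The make-up of the system overlapped between groups. Complex I held 26.2% to 38.3% of the 84 genes' summed FPKM over the 6 libraries, complex II 1.64% to 2.79%, complex III 13.2% to 20.7%, complex IV 25.1% to 35.7% and complex V 15.1% to 24.9%, and the groups overlapped for each complex. Complex IV held the largest share in control 2 and in Eldr cKO 1, and complex I in the other 4 libraries.

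Subunits of complexes III, IV and V made from mitochondrial DNA had lower transcript levels against their nuclear partners in every Eldr cKO library than in any control. These ratios rest on 1, 3 and 2 mitochondrially encoded genes, and the ratio over the whole system overlapped between groups. The summed FPKM of the mitochondrially encoded genes overlapped between groups in each of these complexes. Eldr cKO 1 lay above control 3, at 13561 against 9678 FPKM in complex III, 33005 against 13139 in complex IV and 15973 against 11235 in complex V. Like ratios of other gene sets were not formed, so no background share stands beside them. For complex III, the ratio of summed FPKM, mitochondrially over nuclear encoded, was 16.2, 33.7 and 16.2 in the controls and 9.84, 12.7 and 10.2 in Eldr cKO. For complex IV it was 15.6, 16.9 and 11.6 against 9.11, 8.06 and 11.3. For complex V it was 21.5, 31.2 and 10.9 against 8.24, 5.40 and 9.17. Control 3 and Eldr cKO 3 lay close together for complexes IV and V. For complex I, whose ratio was 38.9, 200 and 48.5 against 20.9, 85.5 and 121, the groups overlapped. In the limma fit 12 of the 13 mitochondrially encoded genes were lower and 1 higher, with a median log2 difference of -0.99, 6 lower and 1 higher at an unadjusted p under 0.05, and 0 by the adjusted p. This was known before the ratios were formed, so they are not independent of it. The ratios compare genes within a library, were computed after values were seen, and carry no test. The labels' protocol names poly(A) selection or ribosomal RNA removal without saying which library had which, and the part of that step in the ratios was not tested.

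**Figure D5:**
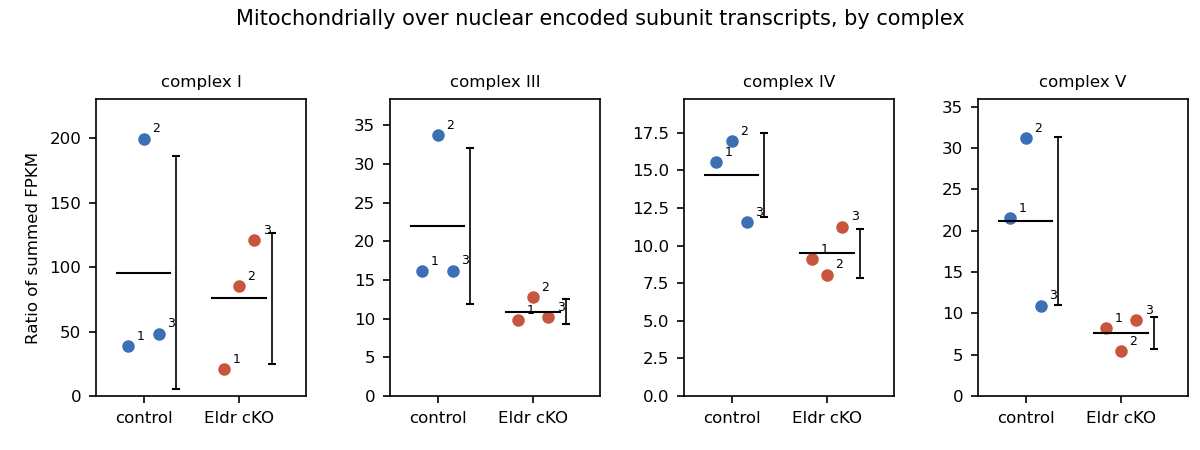
Ratio of the summed FPKM of mitochondrially encoded to nuclear encoded subunits of complexes I, III, IV and V for each library (points, numbered by library), with the group mean (line) and SD (bar, n = 3 libraries). In complexes III, IV and V all 3 Eldr cKO libraries lie below the lowest control, by a small margin for complex IV (11.3 against 11.6), and in complex I the groups overlap.

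Other genes of mitochondrial energy supply stood as follows in the same fit. Of 47 listed assembly factors, 44 had a row and 39 were tested, 15 higher and 24 lower, with 1 in each direction under an unadjusted p of 0.05 and a median log2 difference of -0.18. The 13 tested of 16 regulators of mitochondrial biogenesis were 10 higher and 3 lower, with a median of 0.09 and 0 at that threshold. The 6 carriers and porins, which move ADP, ATP and phosphate, were 2 higher and 4 lower, with a median of -0.49 and 0 at that threshold. Of 77 mitochondrial ribosomal protein genes, 75 were tested, 23 higher and 52 lower, with a median of -0.37 and 0 at that threshold. None of these lists had a gene with an adjusted p under 0.05.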

How the data were processed

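RNA of 3 control and 3 Eldr cKO libraries was sequenced by the authors after poly(A) selection or ribosomal RNA removal, with a stranded kit, per the labels' protocols. The deposited values are FPKM per gene. The submitters' processing notes name StringTie, HISAT2 2.0.5 and cutadapt, and the human build hg19, although the gene IDs are mouse. All 84 members matched GENCODE M21 by ID and name, and 71 also by position within 1 bp, so coordinates are on GRCm38. The table also held the authors' deposited log2 fold change, fold ratio, p-value and q-value. From it only the p-value and q-value are quoted. One line of the table had no content and was not used here.

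Depth is not given as counts. It was estimated from the FPKM of 1 fragment in genes with a single annotated transcript (73 to 149 genes per library within 3%). Fragments per gene depend on the transcript length taken, and 10 of the 84 members have a single transcript. FPKM is not a count, so no count model was used. The 9007 genes averaging 1 FPKM or more were tested on log2(FPKM + 1) with limma 3.58.1 in R 4.3.3, moderated with an intensity trend, two-sided, Benjamini-Hochberg adjusted, threshold 0.05. The prior degrees of freedom were infinite. The added 1 FPKM shrinks the fold change between low values. A value listed at 0 in a shallow library can instead make it large, since 1 fragment at 1 kb was worth 19.1 FPKM in Eldr cKO 2. Medians, shares and promoter letters were computed in Python 3.11.15. The script was tested on simulated data.

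The rule for members reads symbols and no measured value, but members and gene lists were chosen with earlier results of these data known. Named were the 4 highest members of each complex, the 5 of smallest p in each direction, those without overlap and a set of isoforms and core subunits. Alternatives were other pseudocounts, filters and scalings, a robust prior, library weights, each library left out and a replicate block.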

Additional observations from a re-analysis of the deposited data

How the results depend on the processing

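Of the 84 genes, 0 had an adjusted p under 0.05 in limma, and this held for the other pseudocounts, filters, scalings, the robust prior and the replicate block. With library quality weights 3 passed, Atp5k, Atpif1 and Ndufa1, among 6 of all 9007 genes tested. Over the fits that left out 1 library the count ran from 0 to 2. Atp5k and Atpif1 passed without Eldr cKO 1, among 4 of all 8267 genes tested. The count under an unadjusted p of 0.05 was 6 (7.14%, against 1.5% of all genes tested). It was 10 (11.9%, against 2.1%) with a pseudocount of 0.1 and 4 (5%, against 1.95%) with a mean of at least 5 FPKM. It was 2 (2.38%, against 1.54%) after median centring and 12 (14.3%, against 4.9%) with library quality weights. Over the left-out libraries it ran from 4 to 14. It was highest without Eldr cKO 1 (16.9%, against 4.56%). It was lowest without control 2 or Eldr cKO 3 (4.76% in each, against 2.13% and 1.09%). The cause was not tested. The median log2 difference of -0.15 ran from -0.76 to 0.41 over the left-out libraries, and that of all genes from -0.76 to 0.13. Of 45 named genes, 27 changed direction in at least 1 alternative, and 10 that missed the unadjusted threshold passed it in at least 1. The 10 were Cox6a1, Cox6a2, Cox7a2l, Cyc1, Ndufa13, Ndufa5, Ndufa8, Ndufb9, Uqcr11 and Uqcrc2. Like counts over all tested genes were not made, so neither count is a result about these genes. Same-numbered libraries of the groups had correlations of deviations of 0.284, 0.152 and 0.095, each the highest for both libraries, which is a hint from the data and not the design, so the numbers were not taken as pairs. With the replicate block 4 genes (4.76%, against 2.48% of all genes tested) were under the unadjusted threshold. With quantile normalization as well there were 5 (5.95%, against 2.6%). Depth limits these results: in 4 libraries most of the 84 genes stood on few fragments.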
